A study of Mus musculus with 5 samples.

Results

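The 35 genes described here carry out protein folding, membrane translocation and protein degradation in the endoplasmic reticulum (ER) or run the stress response of that compartment. They were taken from a given list out of the 27998 genes measured. They fall into 11 chaperones and their cofactors, 4 disulfide isomerases, 7 parts of the translocation machinery, 6 parts of the degradation machinery, 3 stress sensors, and 3 transcription factors with the pseudokinase Trib3. The genes were followed by single-cell RNA sequencing (10x 3' chemistry) through 5 tissues of mice, with 1 library per group. The early KIC tumour came from a mouse line on a mixed C57BL/6 and FVB background at 40 days of age, the late KIC tumour from the same line at 60 days and the late KPC tumour from mice of that mixed background at 6 months. The late KPfC tumour came from C57BL/6 mice at 60 days. The normal pancreas, on the mixed background, was given the age of 60 days, and no group received a treatment. By general usage of the names, Cdkn2a is lost from the pancreas in the KIC line, Trp53 is deleted through floxed alleles in KPfC and carries a point mutation in KPC; these are not the full genotypes. The sources used here do not give the Cre driver, which limits what can be said of the targeted cells, or how many mice a library pools.

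Proteins that are to be secreted enter the ER through the Sec61 channel while they are made, lose their signal peptide there, and are folded by chaperones and by disulfide isomerases. Proteins that fail to fold are pulled back out and destroyed. An excess of unfolded protein activates the sensors IRE1 (Ern1), ATF6 and PERK (Eif2ak3), which raise the folding and degradation machinery through XBP1, ATF6 and ATF4. Lasting stress induces CHOP (Ddit3). Pancreatic acinar cells make digestive enzymes in bulk and are known for a large rough ER. Xbp1 acts by splicing of its mRNA, and counts of UMIs (unique molecular identifiers, which mark single captured transcripts) at the 3' end do not separate the spliced from the unspliced form.

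The libraries held 938 to 3534 barcodes, of which 836 to 3529 passed the filters, with a median of 1776 UMIs per kept cell in early KIC, 9331.5 in late KIC, 1957.5 in late KPC, 7592 in late KPfC and 4224.5 in normal pancreas. Levels are given as CPM, the UMIs of a gene per 1000000 UMIs summed over the cells of a class in 1 library, with the UMIs of digestive enzymes left out of the total. Acinar cells were those with at least 30% of UMIs from digestive enzymes, and there were 507 in early KIC and 1613 in normal pancreas, against 4 in late KIC and 0 in late KPC and late KPfC. The other classes came from clusters named by their markers, with the 35 genes left out of the clustering. Macrophages numbered 46 in normal pancreas, 747 in early KIC, 292 in late KIC, 524 in late KPC and 1362 in late KPfC. Fibroblasts numbered 435, 1373, 85, 102 and 183 in the same order. Epithelial or tumour cells numbered 348 in early KIC, 281 in late KIC, 61 in late KPC and 605 in late KPfC. The normal pancreas and late KIC libraries held cells of both sexes, with 658 and 344 cells that had Xist alone and 123 and 272 that had Y-linked UMIs alone, and 105 kept barcodes occurred in more than 1 library. Each comparison sets 1 library against 1 other, or classes within 1 library, so a difference has no replicate check and no test was possible. Intervals are exact at 95% and cover counting error only. A gene was called higher or lower where the CPM ratio was at least 2-fold, and was measured only where both sides had at least 30 cells and together at least 20 UMIs of the gene.

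Some promoters of the 35 genes hold known stress response elements. The genes were listed for their part in ER folding and the ER stress response, which these elements are known to serve. The contrast with all genes below is therefore no independent check of the list. RefSeq promoter windows of GRCm38.p6, from 250 bases before to 50 bases after the start of the gene, were matched for 29 of the 35 genes. The ER stress response element ERSE, written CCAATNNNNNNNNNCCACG and searched on both strands, is bound by NF-Y together with ATF6 or XBP1, and it stood in 9 of these 29 promoters (31.0%), against 37 of 27025 genes in the whole table (0.137%). The 9 genes were Calr, Canx, Creld2, Derl3, Dnajc3, Hsp90b1, Hspa5, Pdia6 and Syvn1. The related ERSE-II, ATTGGNCCACG, stood in the promoters of Dnajb11 and Herpud1, 2 of 29 against 12 genes in the whole table (0.0444%). The ATF4 composite element TTGCATCA was found in 1 member promoter, that of Herpud1, against 1.03% of all genes, and the UPRE TGACGTGG in 0 of 29, against 0.714%. A match is a run of letters and says nothing of binding in these cells. The sequences below show some of these promoters, with the fixed letters of the elements in capitals. Each has 30 bases on either side and is read along the gene's strand.
Hspa5 (chr2:34771995-34772073, plus strand): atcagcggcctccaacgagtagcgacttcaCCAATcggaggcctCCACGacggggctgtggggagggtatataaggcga
Syvn1 (chr19:6046502-6046580, plus strand): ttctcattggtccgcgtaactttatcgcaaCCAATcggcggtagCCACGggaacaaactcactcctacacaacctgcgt
Hsp90b1 (chr10:86705503-86705686, minus strand): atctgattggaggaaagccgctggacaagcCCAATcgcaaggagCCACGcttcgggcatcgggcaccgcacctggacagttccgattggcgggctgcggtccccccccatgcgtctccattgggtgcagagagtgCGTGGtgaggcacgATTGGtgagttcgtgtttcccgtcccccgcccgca
Derl3 (chr10:75893212-75893290, plus strand): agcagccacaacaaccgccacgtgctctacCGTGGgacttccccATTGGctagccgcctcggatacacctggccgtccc
Herpud1 (chr8:94386287-94386417, plus strand): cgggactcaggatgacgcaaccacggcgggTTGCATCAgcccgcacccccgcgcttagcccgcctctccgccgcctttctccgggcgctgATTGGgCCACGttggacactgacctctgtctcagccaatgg
Within this window the positions differed between genes. The ERSE of Hspa5, which encodes the chief ER chaperone BiP, began 65 bases before the start and that of Syvn1, which encodes the ubiquitin ligase of ER degradation, 44 bases before it. The promoter of Hsp90b1, the ER form of HSP90, held 2 copies on opposite strands, which began 212 and 107 bases before the start. The element of Derl3 was in reverse orientation at 156 bases, and Herpud1 carried an ERSE-II at 52 bases and the ATF4 element at 112 bases before its start.

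Per non-enzyme UMI, somewhat more of the 35 genes had their highest level in acinar cells than in fibroblasts, and few had it in other classes. The same count over all genes was not made, so it has no background. A cluster named from plasma cell markers was not among these classes. For 28 of the 35 genes its CPM lay above all 16 combinations of class and library, and the genes made up 3.17% of its UMIs. The share of all genes for which this holds was not computed, so the count has no background. Of the 35 genes, 10 had their highest CPM in acinar cells of normal pancreas and 7 in acinar cells of early KIC, among 16 combinations of class and library. Fibroblasts of the 5 libraries held the highest level of 14 genes, epithelial or tumour cells that of 3 and macrophages of late KPC that of 1, Sec61b, a small subunit of the translocation channel. All 35 genes together made up 0.877% of non-enzyme UMIs in acinar cells of early KIC and 1.03% in those of normal pancreas. The share in fibroblasts was 0.843% in normal pancreas, 0.870% in early KIC, 0.739% in late KIC, 0.710% in late KPC and 0.718% in late KPfC. In macrophages it lay between 0.568% in late KPfC and 0.753% in late KPC, and in epithelial or tumour cells between 0.533% in late KPfC and 0.612% in early KIC and late KPC.

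**Figure D1:**
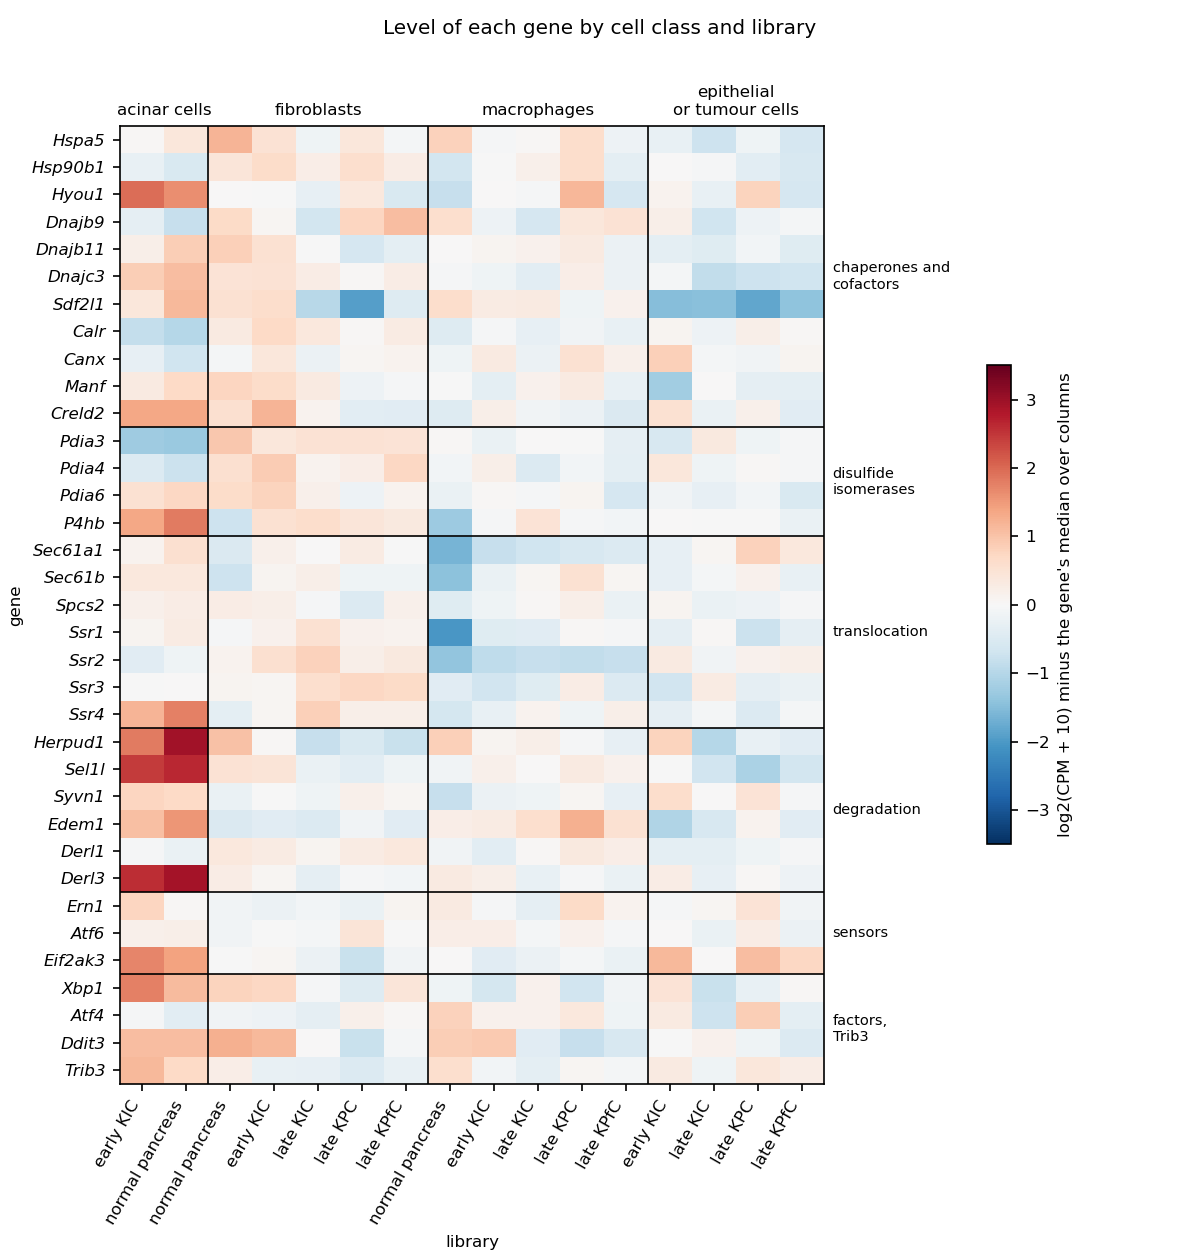
Level of each of the 35 genes (rows, grouped by role) in 16 combinations of cell class and library (columns), as log2(CPM + 10) minus the gene's median over the columns; red is above and blue below that median. Herpud1, Sel1l, Derl3, Hyou1 and Xbp1 stand out in red in the acinar columns, and Pdia3 and Calr in blue.

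**Figure D2:**
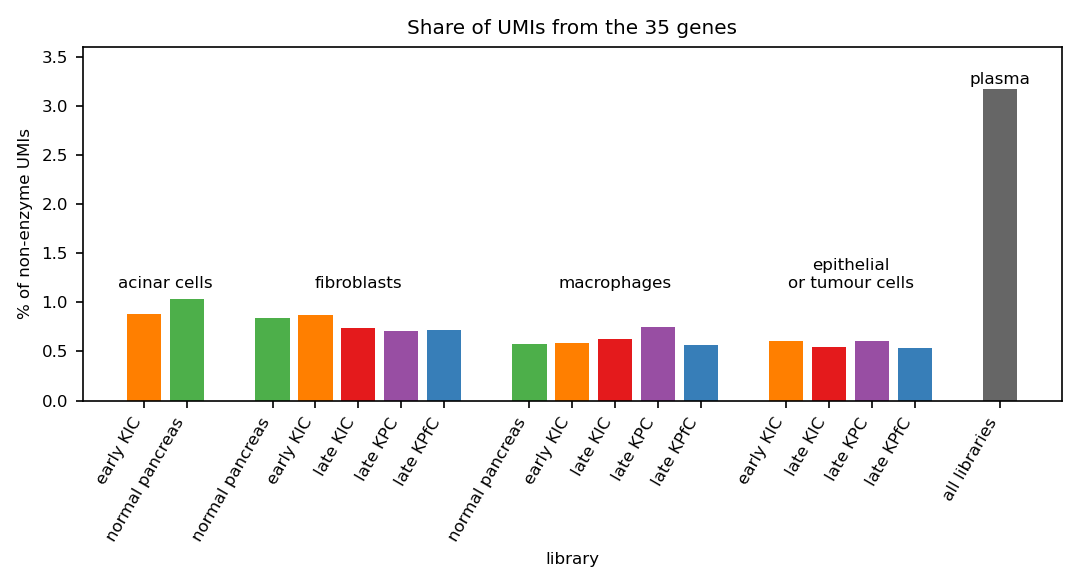
Summed UMIs of the 35 genes as a percentage of the non-enzyme UMIs of each cell class and library, with 1 bar for each class and library and 1 for the cells of the plasma-named cluster over all libraries. The bars of the 4 main classes lie between 0.533% and 1.03%, and the plasma bar is at 3.17%.

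The first comparison set acinar cells of early KIC against those of normal pancreas and asks how the ER of the enzyme-making cell differs at an early tumour stage. Most of the genes differed by less than 2-fold. Of 35 genes, all measured, 1 was at least 2-fold higher, 1 was at least 2-fold lower and 33 lay between, where 19.7% of the 6913 genes measured in these cells were higher and 5.77% lower. The median log2 ratio of the 35 genes was -0.00, against 0.30 over all measured genes, and 9 of the 35 lay above that all-gene median. Per non-enzyme UMI the 35 genes were thus on balance level between the libraries, below the median gene of these cells.

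Herpud1, a membrane protein that recruits the degradation machinery and whose promoter carries the ERSE-II and ATF4 elements shown above, was the only gene called lower. It was at 406 CPM in early KIC, against 888 CPM in normal pancreas, which is 2.19-fold lower (95% interval 1.90 to 2.53) or -1.13 on the log2 scale. With enzyme UMIs kept in the total its log2 ratio was -0.38, short of 2-fold. The gene called higher was Ern1, the IRE1 sensor, with 26.0 CPM from 14 UMIs in early KIC and 11.7 CPM from 29 UMIs in normal pancreas, a ratio of 2.21 (1.08 to 4.32). Ern1 thus rests on few transcripts, and its ratio was under 2-fold when cells of at least 10% enzyme UMIs were counted as acinar (log2 0.52) and when cells were weighted equally (0.90). The nearest gene short of the 2-fold line was Sdf2l1, a partner of BiP, with 154 CPM in early KIC and 260 CPM in normal pancreas (log2 -0.76).

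The other sensors and the transcription factors were within 2-fold. Eif2ak3 (PERK) was at 57.5 CPM in early KIC and 44.9 CPM in normal pancreas, and Atf6 at 26.0 CPM and 26.3 CPM in the same order. Xbp1, the factor made active by IRE1, was at 523 CPM in early KIC and 331 CPM in normal pancreas, a log2 ratio of 0.66. Atf4, the factor downstream of PERK, had 234 CPM in early KIC and 186 CPM in normal pancreas. Ddit3 (CHOP) was at 145 CPM in early KIC and 144 CPM in normal pancreas, so that the marker of lasting ER stress was at the same level in acinar cells of both libraries within counting error. Trib3, a target of ATF4 and CHOP, was at 20.4 CPM in early KIC and 12.5 CPM in normal pancreas.

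Among the chaperones, BiP (Hspa5) was at 732 CPM in early KIC and 939 CPM in normal pancreas (log2 -0.36), and the 11 chaperones and cofactors ran from -0.76 to 0.59 with a median of 0.00. Of the disulfide isomerases, P4hb, the most abundant of the 4 in these cells by CPM, had 953 CPM in early KIC and 1314 CPM in normal pancreas (log2 -0.46), and the group ran up to 0.32 for Pdia4. The 7 translocation genes ran from -0.59 to 0.01 with a median of -0.21, and Ssr4, a subunit of the translocon-associated complex, was at 799 CPM in early KIC and 1199 CPM in normal pancreas. The 6 degradation genes had a median of -0.28 and ran up to 0.22 for Derl1. The 9 genes with an ERSE in the promoter ran from -0.38 to 0.44, with 0 higher and 0 lower. Bhlha15, the acinar regulator of secretory capacity also called MIST1 and not one of the 35, was at 63.0 CPM in early KIC and 136 CPM in normal pancreas, 2.16-fold lower.

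**Figure D3:**
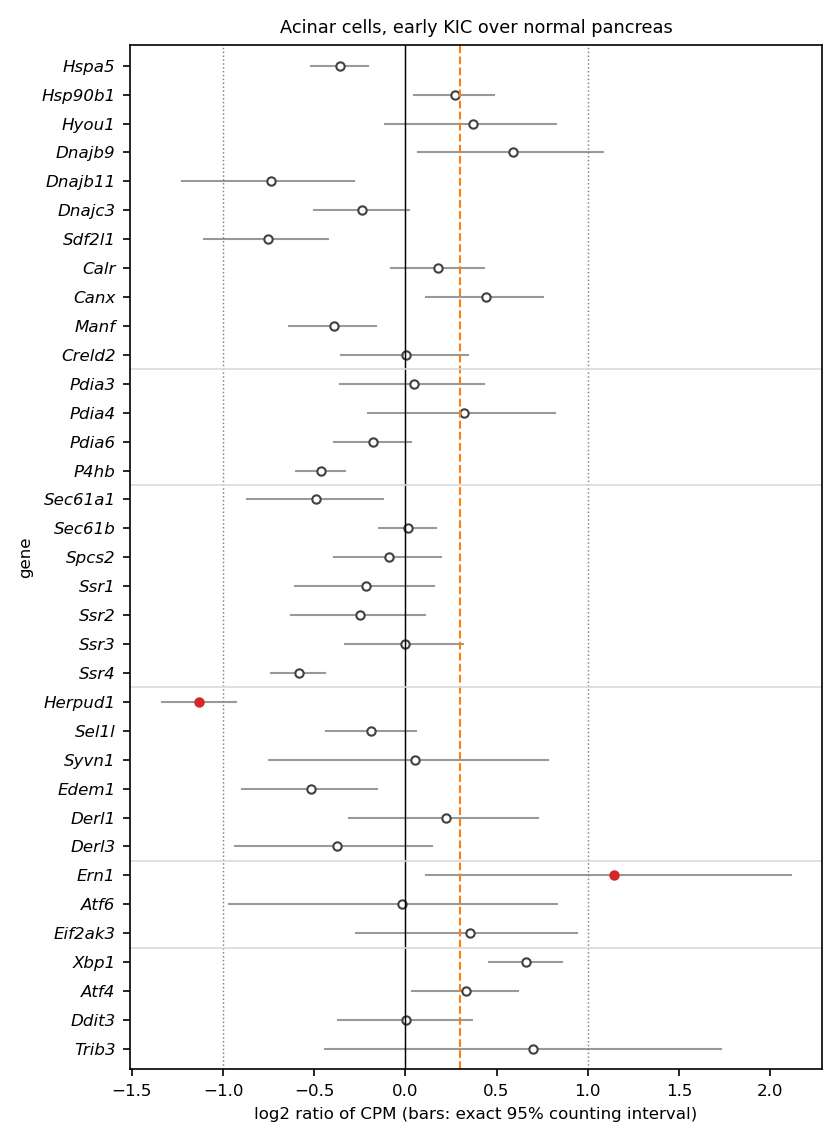
Log2 ratio of CPM in acinar cells, early KIC over normal pancreas, for the 35 genes grouped by role; bars are exact 95% counting intervals, filled points differ by at least 2-fold, dotted lines mark 2-fold and the orange dashed line is the all-gene median. Herpud1 at -1.13 and Ern1 at 1.15 are the filled points, and most of the others lie left of the orange line at 0.30.

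Few genes of the wider pathway were called. Of 25 measured genes of translocation and glycosylation, 0 were higher and 0 lower, with a median of -0.05. Of 27 folding and degradation genes, Dnajc1, a co-chaperone of the ER membrane, was higher (85.3 CPM in early KIC, 29.1 CPM in normal pancreas), and Wfs1 was lower from 2 and 20 UMIs (2.18-fold lower, 0.530 to 19.3). Of 19 ATF4 and stress response targets, Cebpb and Slc7a11, which encode a transcription factor and a cystine transporter, were higher at log2 1.87 and 1.67, and Ddit4 was lower at -1.12. Of 23 ER-to-Golgi transport genes 3 were higher and 0 lower, with Golgb1 and Creb3l2 at 1.35 each, where 19.7% of all genes were higher and 5.77% lower.

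The acinar cells of the 2 libraries also differed in makeup. Digestive enzymes took 56.3% of acinar UMIs in early KIC and 74.0% in normal pancreas. With enzymes kept in the total the median of the 35 genes became 0.75, with 10 higher and 0 lower, beside an all-gene median of 1.05. Markers of other cell types were also unequal in them. The 13 macrophage markers summed to 3157 CPM in early KIC (0 of 13 at 0) and 299 CPM in normal pancreas (1 of 13 at 0). The 14 fibroblast markers summed to 3784 CPM and 1461 CPM in the same order (0 of 14 at 0 in either) and the 9 T or NK cell markers to 29.7 CPM (5 of 9 at 0) and 136 CPM (0 of 9 at 0). The 7 endocrine markers summed to 14007 CPM in early KIC and 5412 CPM in normal pancreas and the 5 erythroid markers to 4288 CPM and 21067 CPM, with 0 at 0 in either. Of the acinar cells 71 of 507 in early KIC and 198 of 1613 in normal pancreas lay in clusters not named acinar, among them 6 and 128 in T or NK cell clusters. The median mitochondrial share was 2.38% in early KIC and 0.178% in normal pancreas. The part of these differences in the result was not tested. Age differs between the libraries, and age, genotype and library cannot be told apart.

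Acinar cells were then set against other cell classes of the same library, where age, strain and preparation are shared but not the depth per cell, with a median of 1080 non-enzyme UMIs in acinar cells of normal pancreas and 4952 in its fibroblasts. In normal pancreas 12 of the 35 genes were at least 2-fold higher in acinar cells than in fibroblasts and 4 were lower, where 9.5% of 9720 measured genes were higher and 52.4% lower. The median of the 35 was 0.36, against -1.07 over all genes, and 31 of 35 lay above the all-gene median. Degradation was the role with the most calls, with 5 of its 6 genes higher. Derl3, a channel component of ER degradation whose ERSE is shown above, was at 84.2 CPM in acinar cells and 4.84 CPM in fibroblasts, 17.4-fold higher (9.53 to 35.4). Sel1l, the adaptor of the degradation ligase, was at 348 CPM in acinar cells and 73.0 CPM in fibroblasts. Edem1, a lectin that hands misfolded glycoproteins to degradation, was at 191 CPM and 38.7 CPM in the same order, and Herpud1 at 888 CPM and 228 CPM. All of these belong to the route that disposes of misfolded protein, and Derl1, its widely expressed member, was the exception at a log2 ratio of -0.68.

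The protein-making side was split. P4hb, the beta subunit of prolyl hydroxylase and a disulfide isomerase, was at 1314 CPM in acinar cells and 218 CPM in fibroblasts (6.02-fold, 5.48 to 6.63), and Ssr4 at 1199 CPM and 272 CPM. Hyou1, a nucleotide exchange factor for BiP, was at 73.2 CPM and 17.2 CPM, and the PERK gene Eif2ak3 at 44.9 CPM and 10.6 CPM. The 4 genes lower in acinar cells were Pdia3, the isomerase that works with the lectin chaperones (122 CPM in acinar cells, 609 CPM in fibroblasts, log2 -2.32), Dnajb9 (-1.65), Pdia4 (-1.46) and calreticulin, Calr (259 CPM and 650 CPM, -1.33). The isomerases thus stood at opposite ends, with P4hb far above and Pdia3 far below the fibroblast level.

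Against the 46 macrophages of normal pancreas 16 of 35 genes were higher in acinar cells and 3 lower, where 16.3% of 6447 measured genes were higher and 31.5% lower, and the medians were 0.95 for the 35 and -0.16 over all genes. The largest log2 ratios were those of Derl3 (3.96, from 208 and 1 UMIs, a ratio of 15.5 with an interval of 2.75 to 616), Hyou1 (3.75, from 181 and 1 UMIs, a ratio of 13.5 with an interval of 2.39 to 536), P4hb (3.16), Sel1l (3.0), Ssr1 (2.79), Syvn1 (2.65, from 84 and 1 UMIs, a ratio of 6.26 with an interval of 1.09 to 250), Sec61a1 (2.50) and Ssr4 (2.43). Syvn1 was short of 2-fold with each library clustered alone (0.76). Dnajb9, Pdia3 and Atf4 were lower, at -1.55, -1.39 and -1.22. Dnajb9 was short of 2-fold at equal depth per cell (-0.77), and Pdia3 (-0.84) and Atf4 (-0.68) were with other secretory genes taken out of the total. At equal depth these 46 cells hold too few UMIs for a ratio of Derl3, Hyou1, Syvn1 or Eif2ak3, which were at the limit set for a count of 0. In early KIC 10 of 34 measured genes were higher than in fibroblasts and 4 lower (6.93% and 36.9% of all genes). There 13 were higher than in macrophages and 1 lower (13.9% and 30.4%), and 12 were higher than in epithelial or tumour cells and 1 lower (6.11% and 49.2%). Derl3, Sel1l, Hyou1, Herpud1 and Ssr4 were called higher in acinar cells in all 5 of these comparisons. In each of the 5 the share of the measured genes called higher lay above that of all genes.

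Of the sensors Eif2ak3 and Ern1 were higher in acinar cells than in fibroblasts and macrophages of early KIC, and Atf6 was not called. Over epithelial or tumour cells of early KIC Ern1 was the only sensor called (log2 1.25), and Eif2ak3 was within 2-fold. That Ern1 call was short of 2-fold with a limit of 10% enzyme UMIs (0.47) and with each library clustered alone (0.99). Eif2ak3 was at 57.5 CPM in acinar cells, against 11.9 CPM in fibroblasts and 5.73 CPM in macrophages, and Ern1 at 26.0 CPM, against 8.41 CPM and 10.7 CPM. The Ern1 calls rest on 14 acinar UMIs and were short of 2-fold with a limit of 10% enzyme UMIs for acinar cells (log2 0.83 over fibroblasts, 0.48 over macrophages) and, over fibroblasts, among cells with Xist and no Y-linked UMIs (0.85). Xbp1 was at 523 CPM in acinar cells, against 249 CPM in fibroblasts and 91.6 CPM in macrophages, and its call over fibroblasts held in 11 of 16 alternatives, with 0.69 at equal depth per cell. Over fibroblasts Derl3 (log2 4.41), Hyou1 (2.49), Sel1l (2.15), Herpud1 (1.87), Edem1 (1.65) and Ssr4 (1.15) were also higher, and Pdia3 (-1.70), Calr (-1.54), Pdia4 (-1.46) and Ssr2 (-1.01) were lower. Of these, Ssr4 (0.79) and Pdia3 (-0.94) were short of 2-fold with a limit of 10% enzyme UMIs. Ssr2 was short of it with a limit of 50% (-0.89), with acinar cells taken from clusters (-0.89) and with other secretory genes taken out of the total (-0.61). Over macrophages Derl3 (3.92), Sel1l (2.47), Hyou1 (2.46), Herpud1 (1.82), Ssr4 (1.47) and P4hb (1.42) were higher and Pdia3 was lower (-1.06), a call that was short of 2-fold with a limit of 10% enzyme UMIs (-0.30), with other secretory genes taken out of the total (-0.66) and with cells weighted equally (-0.74).

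The early KIC epithelial or tumour cells are of interest because acinar cells are held to be one origin of such tumours. The median of the 34 genes was 0.69 in acinar over epithelial or tumour cells, against -0.97 over all genes. Derl3 was at 64.9 CPM in acinar cells and 4.84 CPM in epithelial or tumour cells, Sel1l at 306 CPM and 47.2 CPM, and Edem1 at 133 CPM and 23.0 CPM. Sdf2l1 had 154 CPM in acinar cells and 33.9 CPM in epithelial or tumour cells, and Manf, a stress-induced protein that binds BiP, 317 CPM and 102 CPM. Hyou1 (log2 2.29), Ssr4 (1.54) and P4hb (1.37) were also higher, while Herpud1, at 1.07, was short of 2-fold when cells were weighted equally (0.99). Canx, calnexin, was the gene that was lower in acinar cells, with 196 CPM and 441 CPM. This call was short of 2-fold with a limit of 10% enzyme UMIs (-0.93) and with other secretory genes taken out of the total (-0.77). Of 17 ATF4 and stress response targets 11 were higher in acinar cells and 1 lower, where 6.11% of all genes were higher and 49.2% lower. Nupr1, a small stress protein abundant in acinar cells, was at 13788 CPM in acinar cells and 559 CPM in epithelial or tumour cells and Chac1 at 59.3 CPM and 2.42 CPM.

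**Figure D4:**
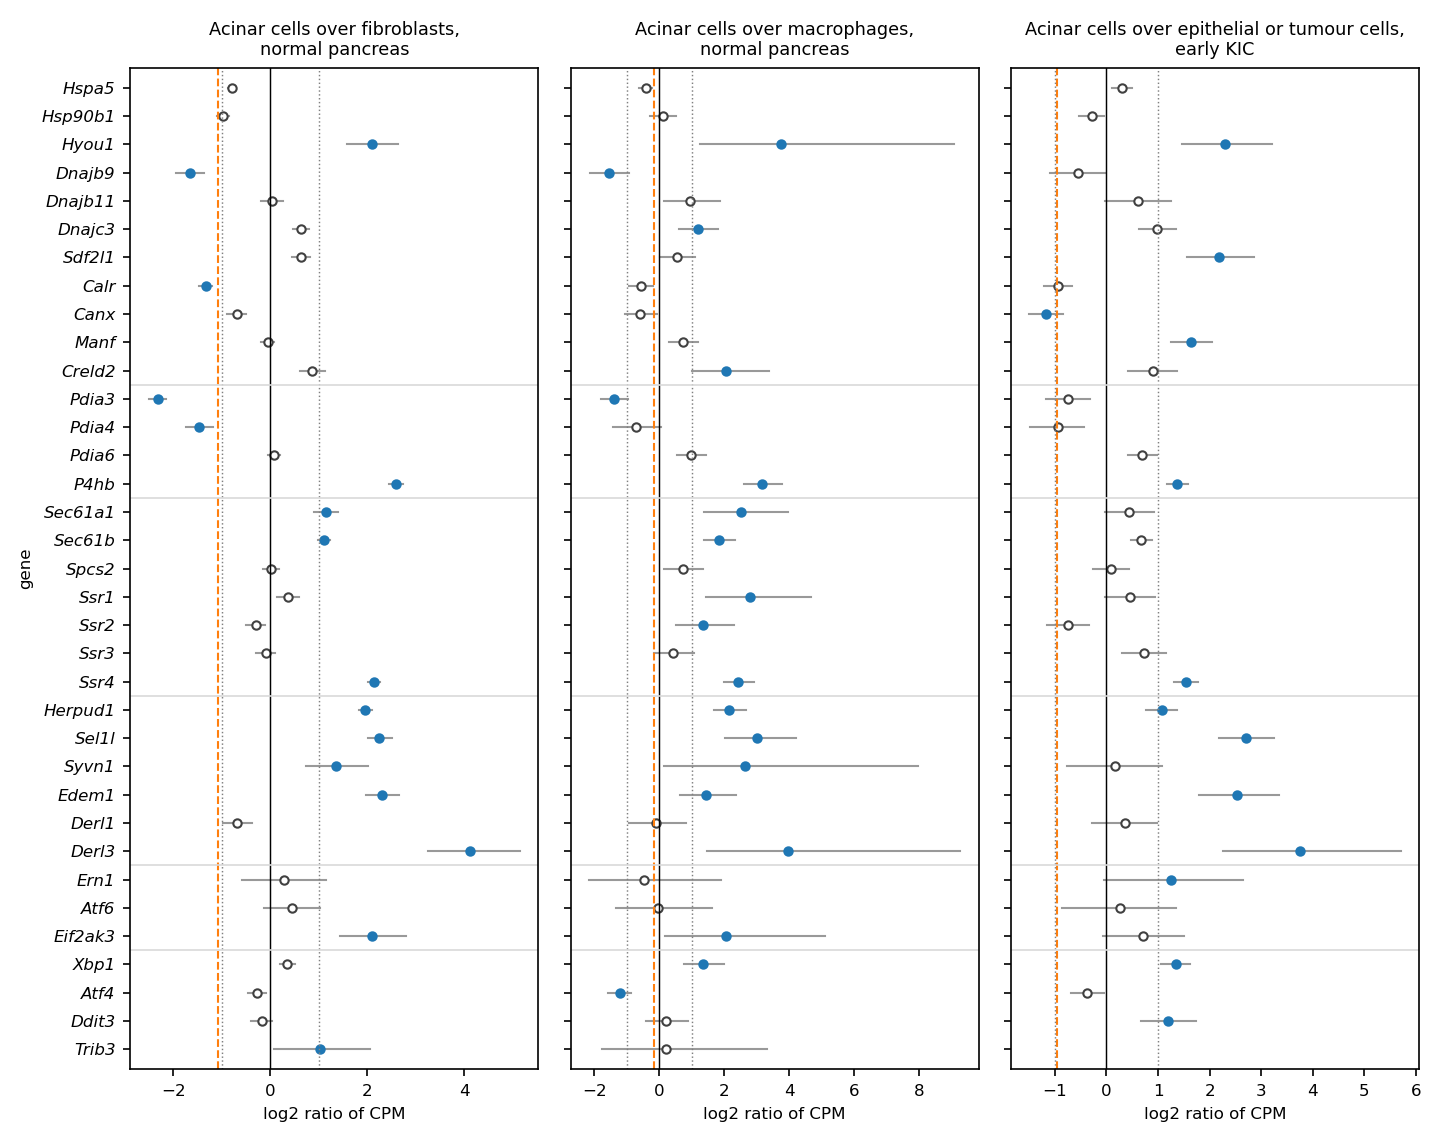
Log2 ratio of CPM in acinar cells over fibroblasts of normal pancreas, over macrophages of normal pancreas and over epithelial or tumour cells of early KIC, for the 35 genes grouped by role; bars are exact 95% counting intervals, filled points differ by at least 2-fold, and the orange dashed line is the all-gene median. Derl3, at 4.12, 3.96 and 3.75, lies far to the right in each panel, and Pdia3 lies left of 0 in each.

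The direction of these class comparisons depends on the total that CPM refers to. With digestive enzymes kept in the total, the median of the 35 genes was -1.54 over fibroblasts and -0.93 over macrophages of normal pancreas, beside all-gene medians of -2.97 and -2.04, so that the genes were lower per acinar UMI but still less so than the median gene. In early KIC these medians were -1.18 over fibroblasts, -0.54 over macrophages and -0.45 over epithelial or tumour cells, beside -1.80, -1.50 and -2.10. Under that total Derl3 was still 2-fold higher over fibroblasts of both libraries (2.23 in normal pancreas, 3.27 in early KIC). Over fibroblasts of normal pancreas Derl3 was the only gene that stayed at least 2-fold higher. Sec61a1, Sec61b, Syvn1 and Trib3 changed sign over these fibroblasts. P4hb (0.70), Edem1 (0.41), Sel1l (0.36), Ssr4 (0.25), Hyou1 (0.20), Eif2ak3 (0.20) and Herpud1 (0.07) stayed above 0 but were short of 2-fold. Free acinar RNA in other cells would account for 1.53% to 5.06% of the UMIs of the 35 genes there, and for 21.7% to 65.8% of those of Derl3.

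The other pathway lists differed within themselves in the same setting. Over fibroblasts of normal pancreas, 3 of 25 translocation and glycosylation genes were higher in acinar cells and 4 lower, and 6 of 27 folding and degradation genes were higher and 5 lower. There 7 of 20 ATF4 and stress response targets were higher and 4 lower, and 3 of 24 ER-to-Golgi genes were higher and 11 lower, where 9.5% of all genes were higher and 52.4% lower. The genes furthest above were Ero1lb, a pancreatic oxidase that recharges disulfide isomerases (238 CPM in acinar cells, 7.04 CPM in fibroblasts), Fkbp11, a prolyl isomerase of secretory cells (851 CPM and 61.6 CPM), the signal peptidase gene Sec11c (416 CPM and 45.3 CPM) and Chac1, a target of ATF4 and CHOP (107 CPM and 1.76 CPM). Those furthest below were Sec23a, a coat protein of ER export, at log2 -3.91, Cebpb at -3.04, Vldlr and Golgb1 at -2.73 each, and Dnajc10 at -2.61.

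Fibroblasts and macrophages were compared between early KIC and normal pancreas as cells that are not thought to carry the tumour mutations. In fibroblasts 1 of 33 measured genes was higher and 1 lower, where 7.34% of all genes were higher and 5.33% lower, and the medians were 0.11 for the members and -0.03 over all genes. P4hb was higher, at 531 CPM in early KIC and 218 CPM in normal pancreas (2.43-fold, 2.19 to 2.70). The same gene was higher in macrophages, at 356 CPM in early KIC and 146 CPM in normal pancreas (2.43-fold, 1.65 to 3.72), while in acinar cells its ratio was on the other side of 1 (log2 -0.46). Herpud1 was lower in fibroblasts, at 111 CPM in early KIC and 228 CPM in normal pancreas, 2.05-fold lower (1.78 to 2.38), a call that was under 2-fold when cells were weighted equally (-0.93). Herpud1 was thus lower in early KIC in acinar cells and fibroblasts, and in macrophages its levels were 115 CPM in early KIC and 201 CPM in normal pancreas, short of 2-fold. Fibroblasts lay mainly in clusters 10 and 11 in early KIC and in cluster 4 in normal pancreas, and macrophages of both in clusters 7 and 9.

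In macrophages 5 of 31 measured genes were higher in early KIC and 0 lower, where 16.3% of all genes were higher and 6.56% lower, a share close to the background. Besides P4hb they were Ssr1 (87.3 CPM in early KIC, 21.7 CPM in normal pancreas, from 122 and 4 UMIs), Sec61b (497 CPM and 212 CPM), Hyou1 (24 and 1 UMIs, ratio 3.17 with an interval of 0.516 to 130) and Syvn1 (19 and 1 UMIs, ratio 2.51 with an interval of 0.399 to 104). The 46 macrophages of normal pancreas limit these values, and Syvn1 turned to lower when each library was clustered alone (-0.49) and when monocyte clusters were counted in (-0.02). Ssr1 and Sec61b were also under 2-fold when each library was clustered alone, at 0.29 and 0.40.

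Late KIC was then set against early KIC. The KIC line was the same, while age, library, the clusters that make up each class and the sex of the cells differed. Late KIC held 45 fibroblasts with Xist alone and 31 with Y-linked UMIs alone, against 1235 and 0 in early KIC. Of macrophages it held 92 and 122 such cells, against 626 and 0 in early KIC. Ddit3 was lower in late KIC in both stromal classes. In fibroblasts CHOP transcripts were at 64.2 CPM in late KIC and 150 CPM in early KIC (2.34-fold lower, 1.85 to 2.98), and in macrophages at 46.3 CPM in late KIC and 130 CPM in early KIC (2.80-fold lower, 2.20 to 3.58). In epithelial or tumour cells Ddit3 was at 71.0 CPM in late KIC and 62.9 CPM in early KIC. Across all libraries Ddit3 in fibroblasts was at 163 CPM in normal pancreas, 150 CPM in early KIC, 64.2 CPM in late KIC, 33.0 CPM in late KPC and 60.4 CPM in late KPfC. In macrophages the levels were 125, 130, 46.3, 32.4 and 39.9 CPM in the same order. At full depth the intervals of normal pancreas and early KIC lay above those of the 3 late tumours in both classes. The lowest bound of normal pancreas and early KIC was 136 CPM in fibroblasts and 79.1 CPM in macrophages, and the highest bound of the late tumours was 79.1 CPM in fibroblasts and 55.7 CPM in macrophages. The fibroblast call of Ddit3 was short of 2-fold at equal depth per cell (-0.75) and among cells with Xist and no Y-linked UMIs (-0.93). The macrophage call held in 16 of 16 alternatives. At equal depth 10.6% of late KIC fibroblasts had Ddit3 (4.96 to 19.2), overlapping normal pancreas (12.0%, 9.06 to 15.4) and early KIC (13.6%, 11.8 to 15.6). Late KPfC (4.37%, 1.91 to 8.43) and late KPC (3.16%, 0.656 to 8.95) lay below both. In macrophages early KIC (12.6%, 10.3 to 15.2) lay above the 3 late tumours (highest bound 7.49), while normal pancreas (4.94 to 26.3) overlapped them.

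In fibroblasts 3 of 33 measured genes were lower in late KIC and 0 higher, where 17.2% of all genes were lower and 7.31% higher, and the medians were -0.32 for the members and -0.20 over all genes. With Ddit3 these were Sdf2l1 (53.4 CPM in late KIC, 182 CPM in early KIC, 3.40-fold lower, 2.66 to 4.41) and Creld2, an ER cofactor induced by stress (61.4 CPM and 140 CPM, 2.29-fold lower, 1.80 to 2.93). In macrophages Ddit3 was the 1 gene of 33 that was lower and 0 were higher, against 9.27% and 9.22% of all genes. Fibroblasts of early KIC lay mainly in clusters 10 and 11, with 700 and 467 of 1373 cells, and those of late KIC in clusters 18 and 6, with 49 and 36 of 85. Macrophages lay in clusters 7 and 9 in early KIC and 20 and 26 in late KIC. Clusters 18 and 6 held both libraries, and there Sdf2l1 was at 52.5 CPM in late KIC and 115 CPM in early KIC (cluster 18) and at 54.8 CPM and 290 CPM (cluster 6).

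Of the 3 classes epithelial or tumour cells had the most calls in this comparison. Of 34 measured genes 2 were higher in late KIC than in early KIC and 6 lower, where 12.7% of all genes were higher and 29.5% lower, with medians of -0.30 and -0.40. Both genes higher in late KIC act in folding or import: Manf was at 252 CPM in late KIC and 102 CPM in early KIC (2.48-fold, 2.0 to 3.13), and Ssr3, a translocon-associated subunit, at 225 CPM and 110 CPM (2.04-fold, 1.65 to 2.55). The lower genes were Herpud1, Xbp1, Atf4, Eif2ak3, Trib3 and Dnajb9, a smaller share than that of all genes. Herpud1 was at 49.2 CPM in late KIC and 193 CPM in early KIC (3.93-fold lower, 3.24 to 4.74), Xbp1 at 81.1 CPM and 207 CPM (2.55-fold lower, 2.14 to 3.03), Atf4 at 142 CPM and 302 CPM (2.13-fold lower, 1.85 to 2.45) and Eif2ak3 at 11.1 CPM and 35.1 CPM (3.16-fold lower, 2.0 to 4.87). Trib3, from 19 and 6 UMIs, was at 2.51 CPM in late KIC and 7.25 CPM in early KIC, and Dnajb9 at 60.6 CPM and 122 CPM. In the group of Trib3 and the transcription factors 3 of 4 genes were lower, and Ddit3 was the exception.

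These cells are not the same population in the 2 libraries. In late KIC 245 of 281 lay in cluster 25, and in early KIC 341 of 348 lay in cluster 14, an epithelial cluster. Cluster 25 was named mesenchymal tumour, with epithelial as the second name, and Hmga2, Krt8 and Krt18 were among its leading genes. Epithelial markers summed to 18305 CPM in the late KIC cells and 27474 CPM in the early KIC cells. Mesenchymal tumour markers summed to 11313 CPM and 6554 CPM in the same order. The 36 late KIC cells in epithelial cluster 24 had Xbp1 at 143 CPM and Herpud1 at 103 CPM, and the 245 in cluster 25 had Xbp1 at 77.2 CPM and Herpud1 at 45.9 CPM. The part of cluster makeup in the difference was not tested. The calls of Atf4 and Dnajb9 were short of 2-fold when cells were weighted equally (-0.89 and -0.91) and among cells with Xist and no Y-linked UMIs (-0.80 and -0.85). Those of Ssr3 (0.82) and Trib3 (-0.84) were short of it with cells weighted equally and that of Manf (0.99) among the Xist cells, while Xbp1, Herpud1 and Eif2ak3 held under every alternative that gave a value. Among the 19 measured ATF4 and stress response targets 8 were higher and 3 lower in the same cells, where 12.7% of all genes were higher and 29.5% lower. Vldlr was at 27.6 CPM in late KIC and 4.84 CPM in early KIC, Slc7a5 at 23.6 CPM and 4.84 CPM, and Ppp1r15a, a phosphatase subunit that ends the PERK response, at 65.1 CPM and 508 CPM. The oxidase Ero1l was at 80.7 CPM in late KIC and 9.67 CPM in early KIC, and its relative Ero1lb at 1.32 CPM and 18.1 CPM.

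Late KIC and late KPfC are of the same age and differ in genotype, strain and sex of the cells. Few of the genes differed. In fibroblasts Dnajb9, a J-domain partner of BiP and target of XBP1, was lower in late KIC, at 64.2 CPM, against 233 CPM in late KPfC (3.63-fold lower, 2.90 to 4.59), and it was 1 of 33 genes lower and 0 higher, where 12.9% of all genes were lower and 5.18% higher. In macrophages Dnajb9 was again lower, at 66.3 CPM in late KIC and 153 CPM in late KPfC (2.30-fold lower, 1.96 to 2.72). With it Trib3 was lower there, from 2 and 38 UMIs (3.74-fold lower, 0.967 to 32.0), and Hyou1 was higher at 16.3 CPM and 7.80 CPM, so that 1 of 34 genes was higher and 2 were lower beside 6.18% and 10.8% of all genes. At equal depth per cell Dnajb9 was short of 2-fold (-0.88), as was Hyou1 with each library clustered alone (0.97). In epithelial or tumour cells 0 of 34 genes were higher and 2 lower, beside 9.14% and 17.4% of all genes: Trib3 (2.51 CPM in late KIC, 6.66 CPM in late KPfC) and Eif2ak3 (11.1 CPM and 24.1 CPM), which was short of 2-fold with cells weighted equally (-0.78). Dnajb9 in those cells was at 60.6 CPM in late KIC and 100 CPM in late KPfC, short of 2-fold. In fibroblasts 160 of the 183 late KPfC cells lay in cluster 6, which scored highest for mesothelial markers, with fibroblast second. It was counted as fibroblasts by its leading genes, among them Dcn and Col1a2. Without it 23 late KPfC fibroblasts are left, under the minimum of 30 cells. Leaving it out therefore gave no value for the comparisons with late KPfC fibroblasts. Within cluster 6 Dnajb9 was at 63.9 CPM in late KIC and 254 CPM in late KPfC. Macrophages lay mainly in clusters 20 and 26 in late KIC and 23 and 26 in late KPfC, and epithelial or tumour cells in cluster 25 in late KIC and cluster 24 in late KPfC.

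Late KPC against late KPfC sets a point-mutant against a deleted Trp53, with age, strain and sex of the cells differing too. Hyou1 was higher in late KPC in all 3 classes. In macrophages it was at 50.8 CPM in late KPC and 7.80 CPM in late KPfC, 6.51-fold higher (4.76 to 8.89), and this held in 15 of 15 alternatives. In epithelial or tumour cells it was at 36.3 CPM in late KPC and 7.93 CPM in late KPfC (4.58-fold, 2.30 to 8.47), and in fibroblasts at 24.7 CPM and 8.69 CPM (2.85-fold, 1.28 to 6.01). The 3 values share their 2 libraries and so are not independent. In macrophages Hyou1 was at 5.43 CPM in normal pancreas, 17.2 CPM in early KIC, 16.3 CPM in late KIC, 50.8 CPM in late KPC and 7.80 CPM in late KPfC, and the interval of late KPC (40.1 to 63.5 CPM) lay above those of the other 4 libraries. Hyou1 in acinar cells, at 94.5 CPM in early KIC and 73.2 CPM in normal pancreas, was higher still.

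Hyou1 was the only one of 34 genes called in macrophages of this comparison, beside 9.67% of all genes higher and 14.4% lower, yet 27 of the 34 lay above the all-gene median, at a median of 0.36 against 0.01. Hsp90b1, short of 2-fold, was at 745 CPM in late KPC and 384 CPM in late KPfC, and BiP at 1100 CPM and 626 CPM. In epithelial or tumour cells 3 of 34 genes were higher and 0 lower, beside 13.3% and 9.86% of all genes. Atf4 was at 450 CPM in late KPC and 189 CPM in late KPfC (2.38-fold, 2.01 to 2.80), and Ern1 reached 2.03-fold from 7 and 68 UMIs (0.786 to 4.41) and was short of 2-fold when each library was clustered alone (log2 0.92). In the same cells 5 of 20 ATF4 and stress response targets were higher and 0 lower, among them Sesn2 (22.3 CPM in late KPC, 7.23 CPM in late KPfC) and the amino acid transporter Slc7a5 (47.5 CPM and 16.7 CPM). In macrophages 5 of 17 such targets were higher and 2 lower, with Asns, asparagine synthetase, at 19.8 CPM in late KPC and 4.27 CPM in late KPfC and Atf3 at 40.9 CPM and 156 CPM.

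In fibroblasts of late KPC 1 of 33 genes was higher than in late KPfC and 2 lower, where 6.11% of all genes were higher and 18.7% lower. Beside Hyou1, Sdf2l1 was lower at 22.7 CPM in late KPC and 80.6 CPM in late KPfC (3.55-fold lower, 1.94 to 7.23), and Eif2ak3 rested on 1 and 23 UMIs (4.41-fold lower, 0.715 to 181). Sdf2l1 in fibroblasts was at 168 CPM in normal pancreas, 182 CPM in early KIC, 53.4 CPM in late KIC, 22.7 CPM in late KPC and 80.6 CPM in late KPfC, and its intervals in normal pancreas and early KIC lay above those of the 3 late tumours. The macrophages of late KPC lay in cluster 20 (512 of 524 cells) and those of late KPfC mainly in clusters 23 and 26, and the epithelial or tumour cells of both mainly in cluster 24, where Atf4 was at 451 CPM in late KPC and 186 CPM in late KPfC. Late KPC is also shallower, with a median of 2310 non-enzyme UMIs per macrophage against 8673 in late KPfC.

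**Figure D5:**
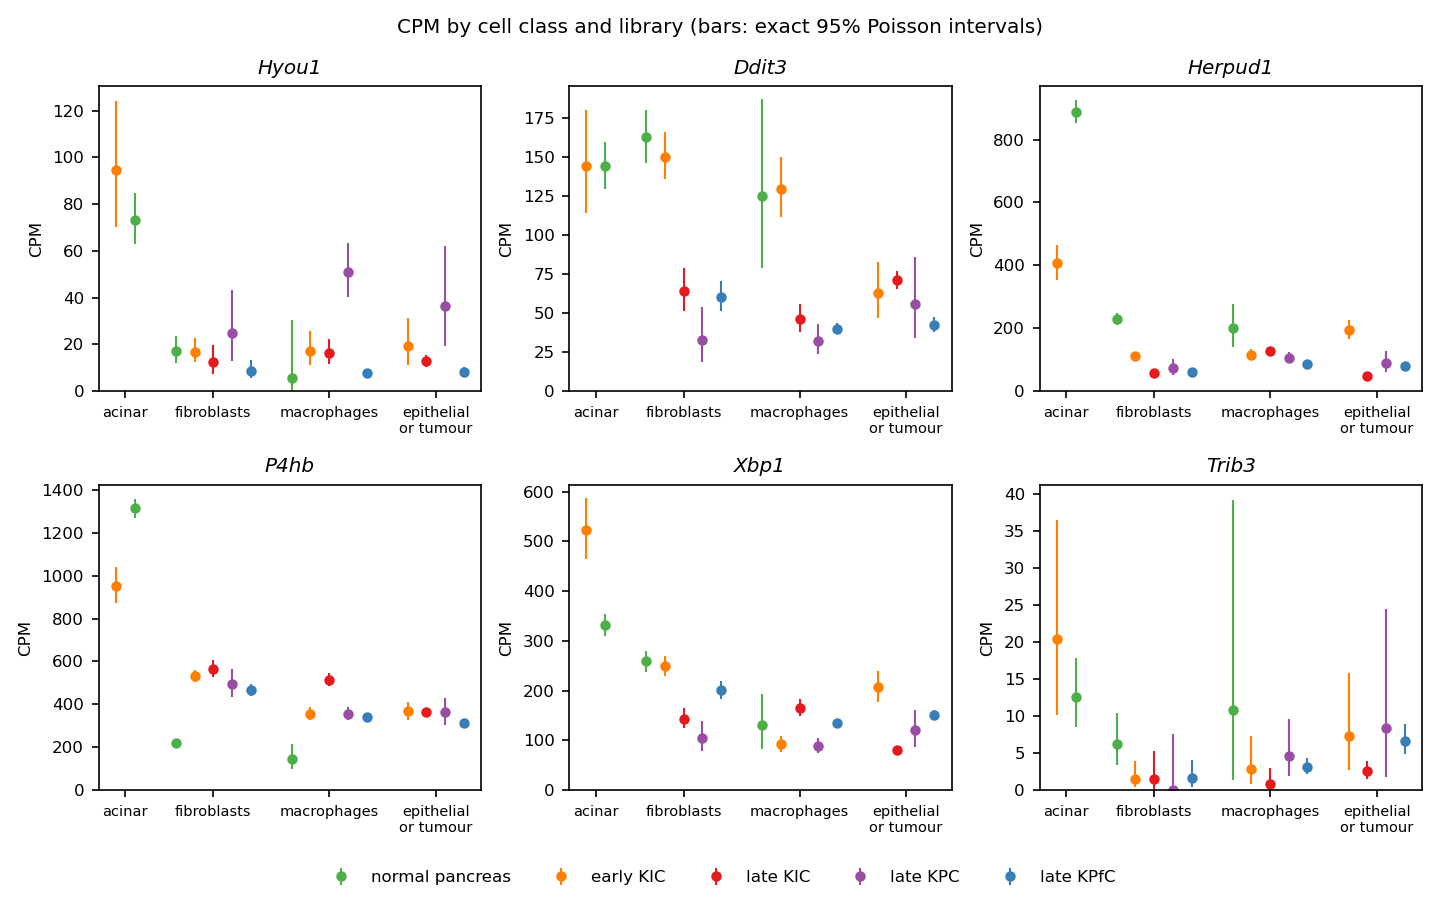
CPM of 6 genes by cell class and library, with exact 95% Poisson intervals as bars; within a class the libraries run normal pancreas, early KIC, late KIC, late KPC, late KPfC, except in acinar cells, where early KIC stands left of normal pancreas. Hyou1 in macrophages is highest in late KPC at 50.8 CPM, and Herpud1 is highest in acinar cells of normal pancreas at 888 CPM. Ddit3 in fibroblasts and macrophages is lower in the 3 late tumours than in the other libraries. At equal depth per cell, not drawn here, the share of fibroblasts with Ddit3 overlapped between late KIC and early KIC.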

How the data were processed

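The authors' counts are UMIs per gene and cell barcode as deposited, made with Cell Ranger 2.1.1 on GRCm38 per the submitters' processing notes. For the annotation release and the use of strand nothing is stated in the labels. Barcodes under 200 genes, under 500 UMIs or over 20% mitochondrial UMIs were dropped, which left 10718 of 11636; a doublet caller marked 9 (0.084%), too few to have worked, so doublets were not removed. Cells were clustered into 32 clusters with scanpy 1.11.5 and leidenalg 0.10.2 (2000 variable genes, 30 principal components, 15 neighbours, resolution 1, seed 0), without the 35 genes, and named from 145 markers (at least 3 at 2-fold or more). A name was changed where the 10 leading genes of a cluster held more markers of the second-best class, as for cluster 6, from mesothelial to fibroblast. Acinar cells were taken by their enzyme UMIs (32 of 34 listed enzymes were in the table).

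UMIs were summed per library and class. Ratios of CPM have exact binomial intervals and levels exact Poisson intervals, at 95% (scipy 1.17.1, numpy 2.4.6, pandas 2.3.3). A side at 0 was set to 3 counts, and the ratio to 1 where that floor exceeded the other side. The calls were tried on simulated data, which cannot show how far libraries of the same group differ. With 1 library per group no test between groups exists, and 17 comparisons were described by counts and medians. Named were the genes at least 2-fold different, by plan up to 8 in each direction, with more in some comparisons. The sensors and factors were named in the first comparison, as were up to 2 genes per direction of each of 4 pathway lists in any comparison. The members, lists and comparisons were chosen with earlier results of these data known. Other settings for the enzyme limit, the total, the cell filters, the clustering, the depth, the minimum UMIs, free RNA and sex were tried (15), and 2 more were chosen after seeing the data. Promoters came from RefSeq and gene positions from GENCODE. Protein sequences were not used here.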

Additional observations from a re-analysis of the deposited data

How the results depend on the processing

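Each comparison was recomputed under 15 other settings and 2 chosen after seeing the data (a cluster with mesothelial markers left out of fibroblasts, monocyte clusters counted as macrophages). Leaving out the mesothelial-marker cluster gave no value for late KPfC fibroblasts, of which 23 remained. Of the medians and counts over the genes 269 stayed close, and the others are given here. Of values of single genes 1946 stayed close, 257 moved and 16 reversed sign. The cause was not tested except where the alternative's own construction shows it. Keeping enzyme UMIs in the total enlarges the total of acinar cells most (enzymes are 74.0% of acinar UMIs and 3.44% of fibroblast UMIs in normal pancreas). Under it the median of the genes in acinar cells, early KIC over normal pancreas, was 0.75 with 10 higher and 0 lower. The medians of acinar cells in normal pancreas were then -1.54 over fibroblasts and -0.93 over macrophages, and in early KIC -1.18 over fibroblasts, -0.54 over macrophages and -0.45 over epithelial or tumour cells, so that all of these but the one over fibroblasts of early KIC, already below 0, changed sign. The called genes that changed sign with it were, over fibroblasts of normal pancreas, Trib3 (-0.87), Syvn1 (-0.53), Sec61b (-0.79) and Sec61a1 (-0.74); over macrophages of normal pancreas, Dnajc3 (-0.70), Xbp1 (-0.53), Ssr2 (-0.53), Edem1 (-0.44) and Sec61b (-0.043); over fibroblasts of early KIC, Xbp1 (-0.064) and Syvn1 (-0.071); over macrophages of early KIC, Dnajc3 (-0.053) and Sec61a1 (-0.10); and over epithelial or tumour cells of early KIC, Herpud1 (-0.066). In acinar cells, early KIC over normal pancreas, 2 genes were lower with a limit of 50% enzyme UMIs, with cells weighted equally, and with at least 500 genes and at most 10% mitochondrial UMIs, where the median was -0.29. With a limit of 10% enzyme UMIs 0 were higher. The count was also 0 with at least 50 UMIs, among cells with Xist and no Y-linked UMIs, and at 1000 UMIs per cell. In those settings 33 genes were measured, and Ern1 had too few UMIs to be among them. At 1000 UMIs per cell the fibroblast medians were 0.17 for late KIC over late KPfC and 0.088 for late KPC over late KPfC, on the other side of 0 from -0.06 and -0.08 at full depth. Syvn1 in macrophages, early KIC over normal pancreas, was -0.49 with each library clustered alone and -0.019 with monocyte clusters counted in. Calls kept under every alternative that gave a value numbered 3 of 16 and 2 of 19 for acinar cells over fibroblasts and macrophages of normal pancreas, and 6 of 14, 5 of 14 and 5 of 13 over fibroblasts, macrophages and epithelial or tumour cells of early KIC; over macrophages of normal pancreas some calls are lost at 1000 UMIs per cell only because a count of 0 is set to 3. The 3 calls kept over fibroblasts of normal pancreas were Derl3, which was higher, and Pdia3 and Dnajb9, which were lower. No paired analysis was possible because each group has 1 library. Carboxy-terminal signals were planned and not run, for want of a protein table. Depth limits the genes resting on few UMIs, and 46 macrophages limit the normal pancreas values.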

Other observations

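A cluster named from plasma cell markers, 47 cells over the 5 libraries with a median of 4492 UMIs, was not part of the comparisons. It gave 3.17% of its UMIs to the 35 genes, above the share in acinar cells, fibroblasts, macrophages and epithelial or tumour cells of any library. For 28 of the 35 genes its CPM lay above all 16 combinations of class and library, and the same share over all genes was not computed. Hsp90b1 was at 4940 CPM there, against a highest level of 764 CPM in fibroblasts of early KIC. Ssr4 was at 3409 CPM, against 1199 CPM in acinar cells of normal pancreas, and Xbp1, known to be needed for antibody secretion by plasma cells, at 2677 CPM, against 523 CPM in acinar cells of early KIC. Derl3 was at 443 CPM in these cells, against 84.2 CPM in acinar cells of normal pancreas, Edem1 at 1238 CPM, against 191 CPM there, and Herpud1 at 1422 CPM, against 888 CPM there.

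The genes that did not lie above all combinations were Pdia3 (540 CPM), P4hb (276 CPM), Canx (205 CPM), Dnajb9 (163 CPM), Hyou1 (66.9 CPM), Trib3 (8.37 CPM) and Sel1l, the adaptor of the degradation ligase. P4hb was thus lower in the plasma-named cells than in acinar cells of normal pancreas (1314 CPM), while Hsp90b1 was at 333 CPM in those acinar cells. The cells of the cluster come from different libraries and were pooled, so these are single values.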
